A study of Mus musculus with 10 samples.

Results

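The cytosolic ribosomal proteins were taken by gene name, as RPL or RPS with a number and at most a short suffix. Rplp0, Rplp1, Rplp2 and Rpsa were added, and S6 kinases and names marked -ps as pseudogenes were left out. Some components, such as Rpl36al, fall outside this rule. Rpl32l and Rps4l meet it but had no annotated coding sequence. The rule found 85 of the 24755 genes, 52 of the large and 33 of the small ribosomal subunit. The chosen genes lie on 19 chromosomes. RNA was measured in mouse tumor cells of pancreatic ductal adenocarcinoma (PDAC), a cancer of the exocrine pancreas, that were collected by flow cytometry on their surface PD-L1, which binds the inhibitory receptor PD-1 of T cells. The PD-L1 high group held 3 libraries of cells given recombinant mouse interferon gamma (IFNγ) and sorted for high PD-L1. The treated all group held 3 libraries of IFNγ-treated cells of every PD-L1 level, and the untreated all group 4 libraries of every level without IFNγ. Cells were collected at 20 hours, and no allele or other agent is named in the labels. The labels give the strain as C57BL/6 for treated all and untreated all, and as C57BL/7, C57BL/8 and C57BL/9 for PD-L1 high libraries 1, 2 and 3. These running numbers may be a slip in the labels, and no strain difference is read from them. Treated all can itself hold PD-L1 high cells, and the labels name neither a cell line nor separate cultures. The p-values therefore reflect sample-to-sample spread alone, and that spread may be technical.

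A ribosome is made of ribosomal RNA and a fixed set of ribosomal proteins. The small subunit reads the mRNA and the large subunit joins the amino acids. Most ribosomal proteins are present at 1 copy per ribosome, so their genes are known for closely matched expression. Their mRNAs begin with an unbroken run of pyrimidines, the 5′ terminal oligopyrimidine or TOP motif, through which the kinase mTOR controls their translation. Some of these proteins also act off the ribosome. Rpl5 and Rpl11 can bind Mdm2, which restrains p53, and human RPL13A joins the GAIT complex, which silences translation of selected mRNAs in monocytic cells after IFNγ.

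The deposited values are a normalized signal of a kind that the labels do not state. Read depth is unknown, and signals are compared between libraries and not between genes. All 7 markers of ductal tumor cells were present, with summed signals of 4800 to 4870 in PD-L1 high, 5300 to 5320 in treated all and 4300 to 4450 in untreated all. These sums were mostly Krt8, Krt18 and Krt19, and other markers had other orders. Sox9 lay at 30.5 to 33.1 in PD-L1 high, 71.6 to 74.9 in treated all and 41.7 to 43.4 in untreated all. Epcam lay at 8.11 to 9.24 in PD-L1 high, 4.47 to 5.28 in treated all and 5.53 to 6.28 in untreated all. Of 7 leukocyte markers 3, Cd3e among them, were at 0 in all libraries, Ptprc reached at most 0.159 and Cd68 lay at 9.38 to 11.1 in PD-L1 high, 10.2 to 11 in treated all and 5.6 to 6.26 in untreated all. The 7 fibroblast markers summed to 140 to 150 in PD-L1 high, 126 to 137 in treated all and 171 to 187 in untreated all, mostly Col3a1. The 4 endothelial markers summed to at most 0.501 and the 4 islet markers to at most 0.12, and 2 of 5 acinar markers were at 0. The acinar sum was 19.1 to 25.7 in PD-L1 high, 13.2 to 17.4 in treated all and 13.3 to 17.6 in untreated all, and Amy2a5 alone lay at 10.2 to 14.2 in PD-L1 high, 4.75 to 8.85 in treated all and 1.89 to 4.24 in untreated all, with no overlap between groups. The acinar marker Cela1 went another way, at 8.94 to 11.5 in PD-L1 high, 8.44 to 9.4 in treated all and 11.3 to 13.4 in untreated all. Pnlip reached at most 0.05. The part of these cell markers in the results was not tested. Untreated libraries 3 and 4 did not vary like independent libraries. For the 80 tested ribosomal proteins the mean of this pair and the mean of libraries 1 and 2 lay a median 0.0032 log2 units apart, against 0.045 and 0.036 for the other ways of pairing the 4 libraries. Tests against untreated all are therefore too liberal, and counts of calls are given with and without libraries 3 and 4.

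A pyrimidine run near the start is the sequence feature that TOP mRNAs share. The stretches below show the longest run of C and T within 50 bases of the annotated start for some of the genes whose values are described further on. Each is given 5′ to 3′ on the gene's strand, with the run in capitals, from RefSeq on GRCm38.p6. The upper 6 genes rose and the lower 3 fell in treated all against untreated all.
Rpl22l1 (chr3:28805499-28805528, plus): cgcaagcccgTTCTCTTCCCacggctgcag
Rpl10 (chrX:74270836-74270865, plus): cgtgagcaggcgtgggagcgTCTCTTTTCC
Rpl12 (chr2:32961732-32961761, plus): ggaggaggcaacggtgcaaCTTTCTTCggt
Rpsa (chr9:120127775-120127804, plus): ccggccgcccgTCCTTTCgcgctacccggg
Rps15a (chr7:118116143-118116172, minus): gcccggcccaCTCTCTTTCTgccatcttcc
Rpl39 (chrX:37085173-37085202, minus): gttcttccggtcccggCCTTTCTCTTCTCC
Rplp0 (chr5:115559467-115559496, plus): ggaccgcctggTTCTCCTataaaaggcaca
Rpl7l1 (chr17:46782670-46782699, minus): gtcgaggcgggCCTCTCTaccccgcccggt
Rpl37a (chr1:72711275-72711304, plus): gcattgcgTCCCTTCCTCTTCggacttggg
The runs of Rpsa, Rplp0 and Rpl7l1 are 7 bases long and those of the other 6 genes 8 to 14 bases. Those of Rpl10 and Rpl39 reach the end of the searched stretch and may be longer. Only that of Rpl22l1 begins at base 2 from the annotated start. The runs of Rps15a and Rpl7l1 begin 15 and 32 bases before the start, and the others begin 12 to 41 bases after it. Not printed are Rps2, which fell and has a run of 10 bases, and Rpl22, which rose and has runs of 14 and 5 bases at separate starts. Whether any of these runs lies at the true 5′ end of the mRNA is not known from these data. Promoter windows of 300 bases were found for 64 of the 85 genes, 76 windows in all. A run of at least 8 was present in 77.6% of these windows and in 35.7% of all 32851 RefSeq windows, with median longest runs of 10 and 7 bases. Among windows of members that rose with IFNγ 79.5% (35 of 44) held such a run. Among those that fell it was 66.7% (6 of 9, from 8 genes), and among those not called 83.3% (15 of 18). The letters CCGGAAG, bound by ETS factors, were found on either strand in 35.5% of member windows and 8.86% of all windows, and AAGATGG, bound by YY1, in 15.8% and 6.34%. TATAAA was found in 10.5% of member windows and 13.6% of all windows, and the E-box CACGTG in 10.5% and 7.15%. A match is a description of the letters and no sign of binding, and the shares were not tested against each other.

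As deposited, ribosomal proteins made up a similar share of the signal in each group. Their summed signal was 131914, 134268 and 135394 in PD-L1 high, 135169, 140884 and 137216 in treated all, and 129326, 136908, 132395 and 133244 in untreated all. These sums were 18.6 to 19.0% of the library total in PD-L1 high, 19.0 to 19.7% in treated all and 18.5 to 19.5% in untreated all, and the 3 groups overlapped. With median-ratio scaling they did not all overlap: the sums were 135642 to 139700 in PD-L1 high, 136248 to 145495 in treated all and 122927 to 133753 in untreated all, with all 6 IFNγ-treated libraries above all 4 untreated ones. In bulk RNA, fewer cells of a type and less RNA per cell cannot be told apart. Large subunit genes held 11.1 ± 0.15% in PD-L1 high, 11.4 ± 0.21% in treated all and 11.2 ± 0.25% in untreated all (SD, n = 3, 3 and 4). The small subunit genes held 7.76 ± 0.12% in PD-L1 high, 7.91 ± 0.13% in treated all and 7.71 ± 0.15% in untreated all. The ratio of the large to the small subunit sum was 1.434, 1.433 and 1.420 in PD-L1 high, 1.440, 1.445 and 1.433 in treated all, and 1.455, 1.461, 1.458 and 1.458 in untreated all. All 6 IFNγ-treated libraries lay below all 4 untreated ones, and PD-L1 high and treated all overlapped. The ratio was not tested.

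**Figure D1:**
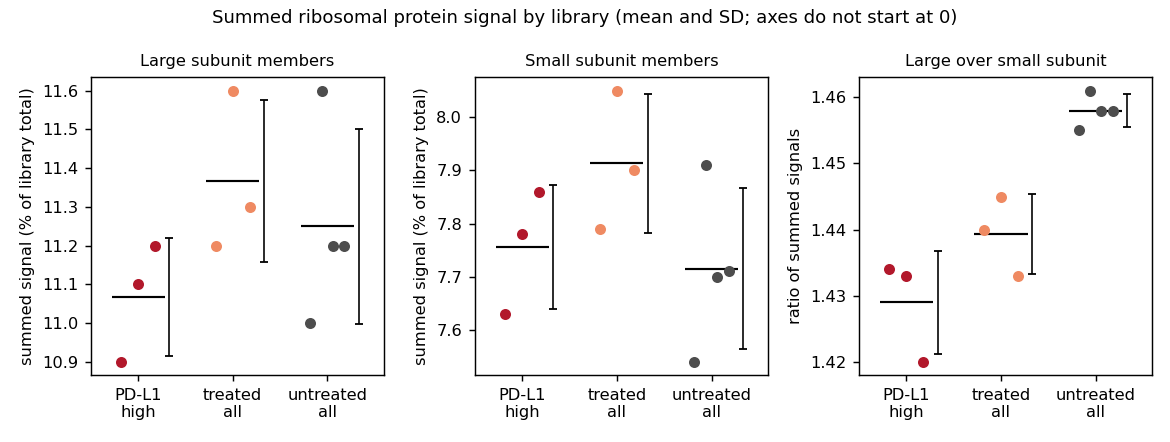
Summed signal of large subunit genes, of small subunit genes (both in % of the library total) and their ratio, with 1 point per library, the group mean as a line and the SD as a bar. The shares of the 3 groups overlap, while the ratio lies at 1.455 to 1.461 in untreated all and at or under 1.445 in both IFNγ-treated groups.

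Part of the spread was an offset between libraries that most ribosomal proteins shared. The median member lay at -0.035 log2 units from the untreated mean in untreated library 1 and at 0.037 in untreated library 2. The totals of these libraries were 698396 and 703554. Untreated library 2 lay above untreated library 1 in 73 of the 80 tested members, and treated library 2 lay above both other treated libraries in 65. The same counts were not made over all tested genes, so whether the offset was particular to ribosomal proteins was not tested. Within groups, members varied by a median SD of 0.037 on the log2 scale (range 0.015 to 0.12), against 0.036 for the 1147 tested genes whose mean signal reached 100 and 0.077 for all tested genes. For a single gene, changes of a few hundredths of a log2 unit are within this spread. The 5 genes not tested had a mean signal under 1.

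With IFNγ, more ribosomal protein mRNAs rose than fell in unselected cells, by small amounts. Between treated all and untreated all 44 of the 80 tested genes rose and 10 fell (limma, adjusted p under 0.05 over 11487 genes), which is 55% and 12.5% of the tested members. Of all 11487 genes 23.1% rose and 38.8% fell. The median log2 fold change of the ribosomal proteins was 0.071, against -0.075 for all genes, and 43 of the 80 moved by less than 0.1 and 69 by less than 0.2. Values did not overlap between the groups in 37 members that were higher and 5 that were lower in treated all, against 23.5% and 39% of all genes. Leaving out 1 library gave 5 falls without treated library 1 or 3 and 6 without untreated library 2 or 4. There were 13 falls without untreated library 1 and 12 without treated library 2 or PD-L1 high library 3. Without untreated libraries 3 and 4, 32 members rose and 5 fell, where 18.1% of all genes rose and 29.5% fell. The balance of rises and falls depends on how libraries are scaled. With median-ratio scaling, which sets the median gene's change in this comparison near 0, 59 members rose and 1 fell, where 30.8% of all genes rose and 30.2% fell. The member that fell there was Rpl7l1.

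Both subunits held rises and falls. Of 48 tested large subunit genes 25 rose, 8 fell and 15 were not called, with a median log2 fold change of 0.064. Of 32 small subunit genes 19 rose, 2 fell and 11 were not called, with a median of 0.084. The difference of the medians, large minus small, was -0.019, -0.008 for PD-L1 high against treated all and -0.015 for PD-L1 high against untreated all. These differences were not tested.

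**Figure D2:**
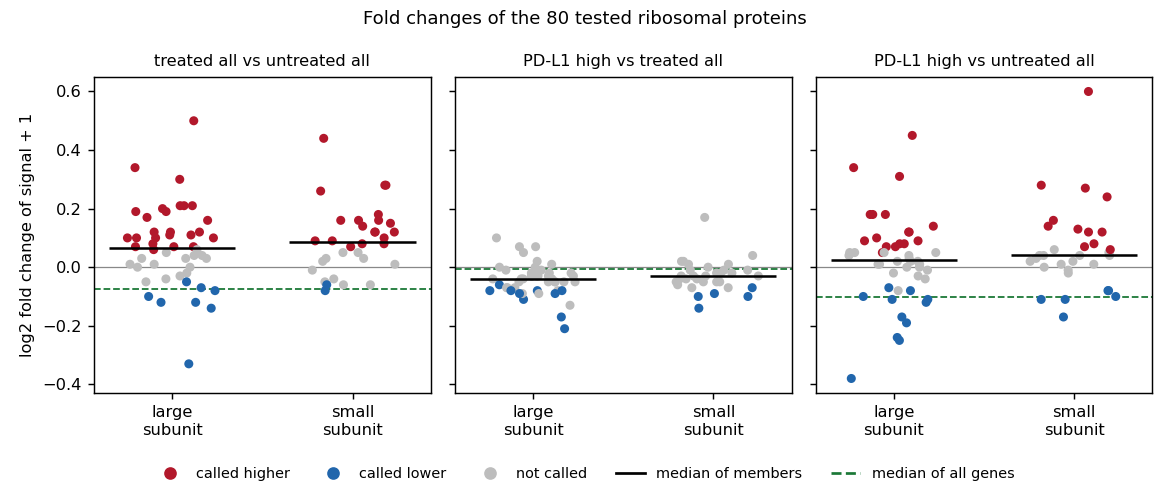
Log2 fold change of signal + 1 for the 80 tested ribosomal proteins in 3 comparisons, split by subunit, with 1 point per gene coloured by its call at an adjusted p under 0.05. Black lines are the medians of the members and green dashed lines the medians of all tested genes; 44 points are called higher and 10 lower in treated all against untreated all.

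**Figure D3:**
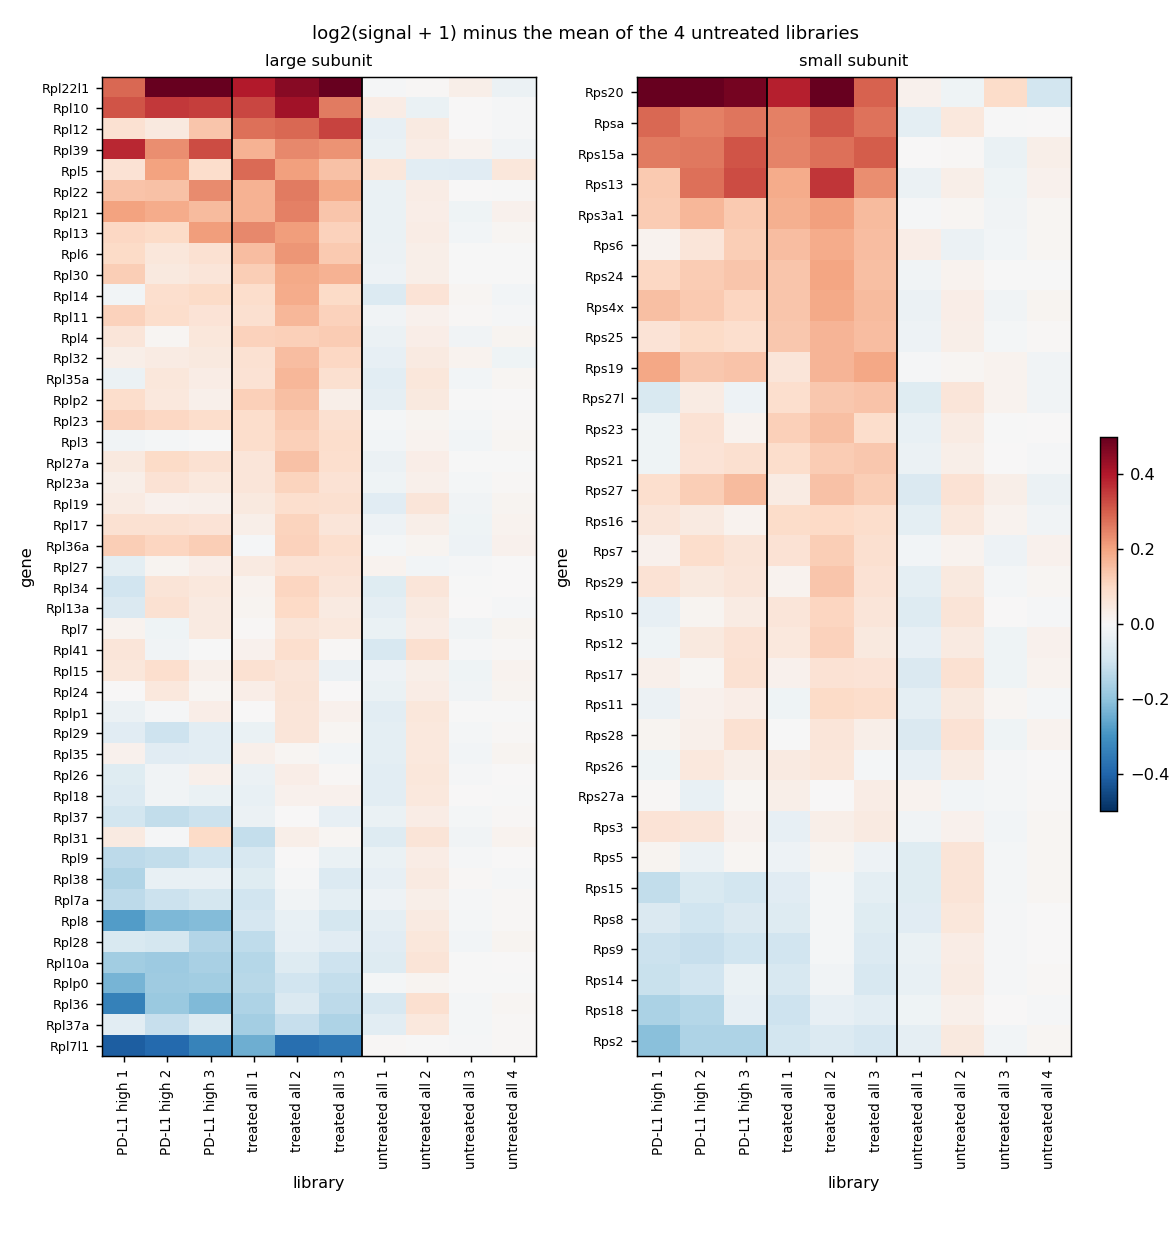
Log2(signal + 1) of the tested members, with 1 left out, in each of the 10 libraries, minus its mean in the 4 untreated libraries, in rows sorted by the difference of treated all and untreated all. The colour scale ends at -0.5 and 0.5; Rpl22l1 and Rps20 lead the red rows, Rpl7l1 is the darkest blue, and most rows stay pale.

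The largest rise in treated all against untreated all was that of Rpl22l1, a paralog of the large subunit protein Rpl22 (chromosome 3, 28805436 to 28807424, plus strand, GRCm38). Its signal was 309.5, 370.4 and 359.7 in PD-L1 high, 333.4, 347.6 and 394.9 in treated all, and 252.1, 254.3, 258.8 and 248.4 in untreated all. Every treated library lay above every untreated one, while PD-L1 high and treated all overlapped. The log2 fold change (of signal + 1) was 0.50 ± 0.067 (SE) for treated all against untreated all (limma adjusted p = 1e-04) and 0.45 ± 0.067 for PD-L1 high against untreated all (limma adjusted p = 2.4e-04). Rpl22 itself (chromosome 4, 152325742 to 152334071, plus strand) averaged 908.4 ± 34 in PD-L1 high, 927.6 ± 30 in treated all and 803.4 ± 16 in untreated all (SD, n = 3, 3 and 4). It rose by 0.21 and 0.18 against untreated all. An antisense gene overlaps exons of Rpl22l1, and whether counting used strand is not stated.

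Rps20, a protein of the small subunit head (chromosome 4, 3831334 to 3835665, minus strand), had signals of 341.7, 360.8 and 309.0 in PD-L1 high, 290.4, 341.5 and 271.4 in treated all, and 224.4, 218.2, 235.7 and 207.8 in untreated all. It was above untreated all in all 6 IFNγ-treated libraries, with a wide spread among them. Against untreated all it rose by 0.44 ± 0.079 on the log2 scale in treated all (limma adjusted p = 8.9e-04) and by 0.60 ± 0.079 in PD-L1 high (limma adjusted p = 1.2e-04). PD-L1 high and treated all overlapped, and their difference of 0.17 ± 0.085 was not called (limma adjusted p = 0.18).

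Rpl10 helps to release the assembly factors that keep the subunits apart and is encoded on the X chromosome (74270812 to 74273135, plus strand). It had signals of 714.9, 732.8 and 729.4 in PD-L1 high, 724.3, 767.5 and 688.3 in treated all, and 588.5, 560.7, 575.3 and 571.9 in untreated all. Both IFNγ-treated groups lay above untreated all without overlap, by a log2 fold change of 0.34 ± 0.032 each (limma adjusted p = 4.3e-06 for treated all and 5.2e-06 for PD-L1 high). Rpsa, a small subunit protein also known as the laminin receptor (chromosome 9, 120127689 to 120132369, plus strand), followed the same pattern. Its signal was 1336, 1301 and 1315 in PD-L1 high, 1304, 1355 and 1320 in treated all, and 1056, 1134, 1091 and 1095 in untreated all. The groups with IFNγ overlapped each other and not untreated all, with log2 fold changes of 0.28 ± 0.023 for treated all (limma adjusted p = 1.7e-06) and 0.27 ± 0.023 for PD-L1 high (limma adjusted p = 2.8e-06).

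Rps15a of the small subunit (chromosome 7, 118104372 to 118116188, minus strand) had signals of 2187, 2196 and 2273 in PD-L1 high, 2171, 2213 and 2255 in treated all, and 1829, 1834, 1786 and 1867 in untreated all. It rose by 0.28 ± 0.020 in each IFNγ-treated group, with limma adjusted p = 5.4e-07 for treated all and 6.5e-07 for PD-L1 high. Rpl39, a small protein that lines the exit tunnel of the growing peptide (X chromosome, 37082520 to 37085402, minus strand), had signals of 717.0, 647.6 and 690.8 in PD-L1 high, 622.1, 650.4 and 643.8 in treated all, and 538.7, 564.8, 557.8 and 543.8 in untreated all. Neither gene overlapped between an IFNγ-treated group and untreated all. Rpl39 rose by 0.21 ± 0.032 in treated all (limma adjusted p = 1.9e-04) and by 0.31 ± 0.032 in PD-L1 high (limma adjusted p = 1.2e-05).

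Rpl12 differed in all 3 comparisons. Rpl12 lies at the base of the large subunit stalk, where translation factors bind (chromosome 2, 32961559 to 32965345, plus strand). Its signal was 127.1, 124.7 and 132.7 in PD-L1 high, 146.2, 147.1 and 152.6 in treated all, and 117.0, 124.3, 120.8 and 120.1 in untreated all. Treated all stood above both other groups, and PD-L1 high stood just above untreated all. The log2 fold change was 0.30 ± 0.029 for treated all against untreated all (limma adjusted p = 6e-06) and -0.21 ± 0.031 for PD-L1 high against treated all (limma adjusted p = 7.1e-04). For PD-L1 high against untreated all it was 0.09 ± 0.029 (limma adjusted p = 0.024), which was no longer called without untreated libraries 3 and 4 (0.09, adjusted p = 0.12), without untreated library 1 (0.07) or 4 (0.09), or without PD-L1 high library 3 (0.06). Exons of Rpl12 overlap Lrsam1 on the opposite strand.

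**Figure D4:**
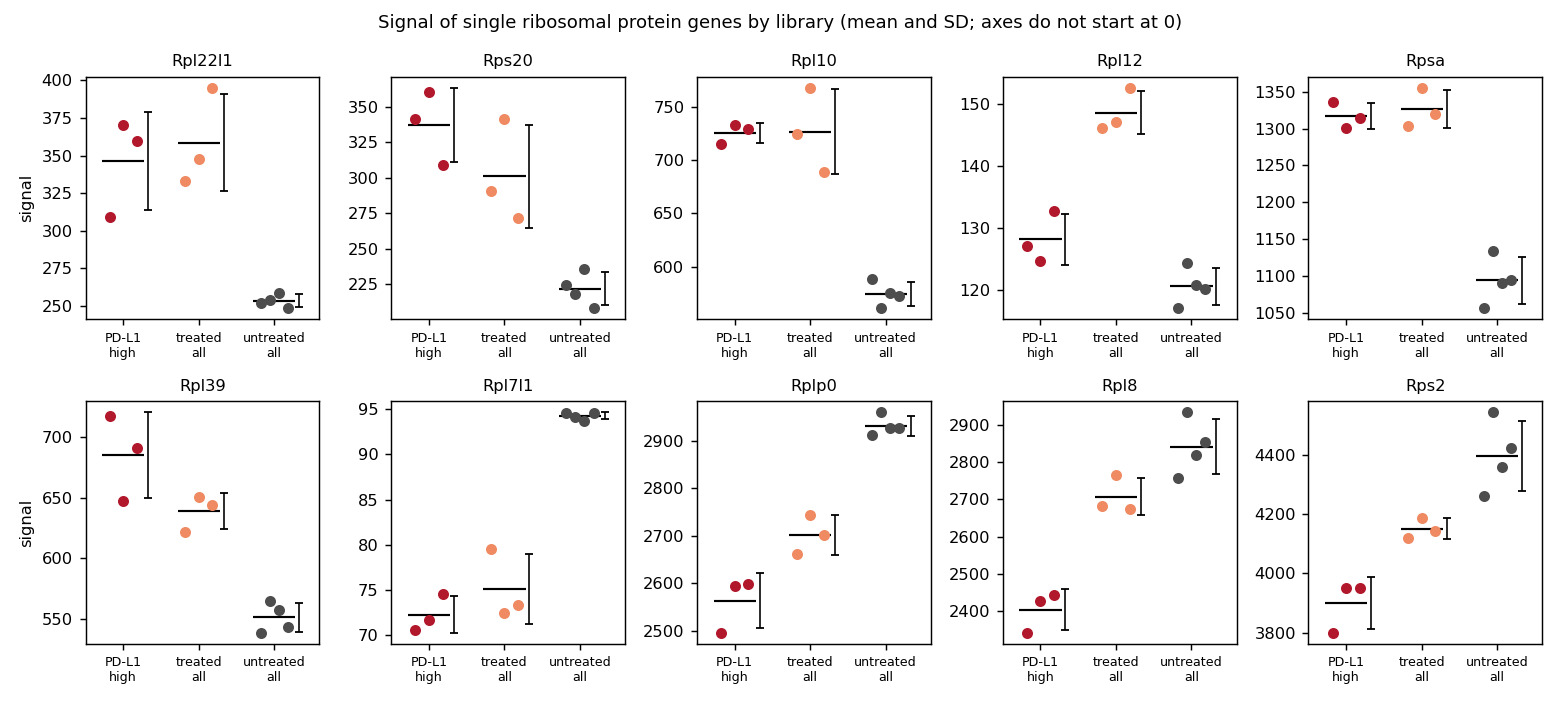
Signal of 10 ribosomal protein genes in each library (points), with the group mean as a line and the SD as a bar, for PD-L1 high, treated all and untreated all; the vertical axes do not start at 0. Rpl22l1, Rps20, Rpl10, Rpsa and Rpl39 are higher in both IFNγ-treated groups than in untreated all, Rpl12 is highest in treated all, and Rpl7l1, Rplp0 and Rps2 are highest in untreated all.

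Among the members that fell with IFNγ, Rpl7l1 moved most. Rpl7l1 is a paralog of the large subunit protein Rpl7 (chromosome 17, 46773907 to 46782672, minus strand). It had signals of 70.6, 71.69 and 74.51 in PD-L1 high, 79.48, 72.39 and 73.35 in treated all, and 94.54, 94.19, 93.75 and 94.57 in untreated all. The untreated libraries were nearly identical, and all lay above the 6 IFNγ-treated ones. Against untreated all the log2 fold change was -0.33 ± 0.034 for treated all (limma adjusted p = 9.8e-06) and -0.38 ± 0.034 for PD-L1 high (limma adjusted p = 3.5e-06), and the call held under every scaling tried.

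Rplp0, the scaffold of the acidic stalk that recruits elongation factors (chromosome 5, 115559467 to 115563727, plus strand), had signals of 2496, 2594 and 2599 in PD-L1 high, 2661, 2745 and 2702 in treated all, and 2912, 2960, 2927 and 2927 in untreated all. The 3 groups did not overlap, with PD-L1 high lowest and untreated all highest. It fell by 0.12 on the log2 scale in treated all (limma adjusted p = 1.3e-04) and by 0.19 in PD-L1 high (limma adjusted p = 3.1e-06), both against untreated all. With median-ratio scaling the difference of treated all was -0.04 and was not called. Its partners in the stalk were not called lower. Rplp1 averaged 3764 ± 81 in PD-L1 high, 3843 ± 82 in treated all and 3768 ± 110 in untreated all and was called in no comparison, though with median-ratio scaling it was 0.11 higher in treated all than in untreated all (limma adjusted p = 0.018). Rplp2 averaged 829.3 ± 18 in PD-L1 high, 856.9 ± 37 in treated all and 798.7 ± 22 in untreated all and rose by 0.10 in treated all against untreated all (limma adjusted p = 0.014), a call lost without untreated libraries 3 and 4 (adjusted p = 0.072) or without treated library 1 (0.09) or 2 (0.08).

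Rps2, at the mRNA entry side of the small subunit (chromosome 17, 24718116 to 24721929, plus strand), had signals of 3800, 3950 and 3950 in PD-L1 high, 4119, 4188 and 4144 in treated all, and 4262, 4542, 4358 and 4424 in untreated all. The groups again did not overlap and had the same order as for Rplp0. Changes were -0.08 ± 0.021 on the log2 scale for treated all (limma adjusted p = 0.0061) and -0.17 ± 0.021 for PD-L1 high (limma adjusted p = 4.5e-05), both against untreated all. Rpl37a, a zinc-binding protein of the large subunit (chromosome 1, 72711290 to 72713813, plus strand), had signals of 1344, 1288 and 1333 in PD-L1 high, 1241, 1289 and 1254 in treated all, and 1346, 1447, 1386 and 1401 in untreated all. It fell by 0.14 in treated all (limma adjusted p = 4.7e-04). It was 0.08 lower in PD-L1 high than in untreated all (limma adjusted p = 0.02), a call lost without untreated libraries 3 and 4 (adjusted p = 0.09) or PD-L1 high library 2 (-0.06), and the value was 0.03 with median-ratio scaling. With that scaling neither Rps2 nor Rpl37a was called in treated all against untreated all, and Rps2 was not called in PD-L1 high against untreated all.

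Within the IFNγ-treated cells, few ribosomal proteins differed between PD-L1 high and treated all. Of the 80 tested genes 0 were higher and 15 lower in PD-L1 high than in treated all (limma, adjusted p under 0.05), where 11.5% of all genes were higher and 14.1% lower. At an unadjusted p under 0.05, 2 were higher and 25 lower. The lower calls are 18.8% of the members, against 14.1% of all genes, and comprise 10 large and 5 small subunit genes. The median log2 fold change was -0.038, against -0.007 for all genes, and 74 of the 80 moved by less than 0.1. It was -0.022 without treated library 2, -0.017 with median-ratio scaling and -0.009 with upper-quartile scaling. In 27 members PD-L1 high lay below treated all without overlap and in 0 above it, against 20.7% and 17.4% of all genes. Without untreated libraries 3 and 4, which enter the shared estimate of the spread, 8 members (10%) were lower and 0 higher, where 8.81% of all genes were lower and 7.69% higher. Leaving out PD-L1 high library 1 also gave 8 lower. With median-ratio scaling 3 (3.75%) were lower and 0 higher, where 11.9% of all genes were lower and 13.9% higher, and these 3 were Rpl12, Rpl8 and Rpl3. Of the members described above, Rplp0 was 0.08 lower (limma adjusted p = 0.011) and Rps2 0.09 lower (limma adjusted p = 0.016). Neither was called with median-ratio scaling, nor was Rps2 without PD-L1 high library 1 (-0.07).

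Rpl8 surrounds the peptidyl transferase centre of the large subunit (chromosome 15, 76904078 to 76906314, plus strand). Its signal was 2342, 2428 and 2442 in PD-L1 high, 2681, 2765 and 2675 in treated all, and 2757, 2933, 2820 and 2855 in untreated all. PD-L1 high lay below both other groups, while treated all and untreated all overlapped. Its PD-L1 high signal differed by -0.17 ± 0.025 on the log2 scale from that of treated all (limma adjusted p = 5.5e-04) and by -0.24 ± 0.023 from that of untreated all (limma adjusted p = 5.7e-06). Between treated all and untreated all it was -0.07 ± 0.023 (limma adjusted p = 0.021). That call was lost without untreated libraries 3 and 4 (adjusted p = 0.088) or without treated library 1 or 3 (-0.06 each), and the value was 0.01 with median-ratio scaling.

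Rpl3, which also reaches the peptidyl transferase centre (chromosome 15, 80077791 to 80091868, minus strand), had signals of 1418, 1424 and 1433 in PD-L1 high, 1522, 1558 and 1524 in treated all, and 1420, 1452, 1421 and 1442 in untreated all. Treated all stood above both other groups, which overlapped each other. Log2 fold changes were -0.11 ± 0.015 for PD-L1 high against treated all (limma adjusted p = 6.2e-04) and 0.10 ± 0.014 for treated all against untreated all (limma adjusted p = 1.4e-04). Rps27l had the same shape. Rps27l is a paralog of Rps27 and a known p53 target (chromosome 9, 66946086 to 66949516, plus strand). It averaged 275.7 ± 11 in PD-L1 high, 304.3 ± 6.6 in treated all and 279.8 ± 10 in untreated all (SD, n = 3, 3 and 4). It was 0.14 ± 0.036 lower in PD-L1 high than in treated all on the log2 scale (limma adjusted p = 0.015), a call lost without treated library 3 (-0.13) or PD-L1 high library 1 (-0.11) and with median-ratio scaling (-0.12). Its rise of 0.12 ± 0.034 in treated all (limma adjusted p = 0.009) had an adjusted p of 0.052 without untreated libraries 3 and 4.

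Set against untreated cells, the PD-L1 high cells showed rises and falls at once. Of the 80 tested genes 29 were higher and 17 lower in PD-L1 high than in untreated all (limma, adjusted p under 0.05), where 19.1% of all genes were higher and 41% lower. The median log2 fold change was 0.038, against -0.101 for all genes, and 0.016 without untreated library 1 or 0.025 without PD-L1 high library 3. In 29 members PD-L1 high was above untreated all without overlap and in 16 below it, against 20% and 41.8% of all genes. Large subunit genes counted 17 higher, 11 lower and 20 not called, and small subunit genes 12, 6 and 14. Without untreated libraries 3 and 4, 19 were higher and 12 lower, where 14.6% of all genes were higher and 29.5% lower. With median-ratio scaling, which moved the median of all genes from -0.101 to -0.006, 57 members were higher and 4 lower, where 28% of all genes were higher and 27.5% lower. The 4 lower were Rpl7l1, Rpl36, Rpl8 and Rplp0. This comparison shares its PD-L1 high libraries with the previous comparison and its untreated libraries with the earlier one, so the 3 sets of values are not independent.

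Rpl36 of the large subunit (chromosome 17, 56613416 to 56614243, plus strand) had signals of 2732, 3036 and 2962 in PD-L1 high, 3101, 3284 and 3155 in treated all, and 3271, 3648, 3432 and 3475 in untreated all. PD-L1 high lay below both other groups, and treated all and untreated all overlapped by 1 library. Against untreated all the difference was -0.25 ± 0.042 for PD-L1 high (limma adjusted p = 4.9e-04). For treated all it was -0.12 ± 0.042 (limma adjusted p = 0.029), which was lost without untreated libraries 3 and 4 (adjusted p = 0.11), without untreated library 2 (-0.09) or 4 (-0.12), without treated library 1 (-0.10) or 3 (-0.11), and with median-ratio scaling (-0.04).

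Among other members Rpl23a averaged 4447 ± 68 in PD-L1 high, 4540 ± 83 in treated all and 4290 ± 63 in untreated all. Rpl23a, a docking site at the tunnel exit, rose by 0.08 ± 0.017 on the log2 scale in treated all against untreated all (limma adjusted p = 0.0016). On the small subunit, Rps18 averaged 3421 ± 150 in PD-L1 high, 3535 ± 81 in treated all and 3697 ± 48 in untreated all. It was lower in PD-L1 high than in untreated all, at -0.11 ± 0.027 (limma adjusted p = 0.0039), a call lost with median-ratio scaling. Rps27 averaged 3518 ± 93 in PD-L1 high, 3474 ± 130 in treated all and 3232 ± 140 in untreated all. Its log2 fold changes of 0.10 in treated all and 0.12 in PD-L1 high were called (limma adjusted p = 0.026 and 0.012) but not without untreated libraries 3 and 4 (adjusted p = 0.093 and 0.058). In treated all the call was also lost without untreated library 1 (0.08) or 4 (0.09) or treated library 2 (0.08) or 3 (0.10), and in PD-L1 high without PD-L1 high library 3 (0.10).

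Paralogs known from germ cells or muscle, and also Rpl32l and Rps4l, were listed at or near 0. Rpl3l, the striated muscle form of Rpl3, and Rpl10l, the testis form of Rpl10, were listed at 0 in 9 libraries and at 0.11 and 0.08 in treated library 1. Rpl39l, the testis form of Rpl39, was listed at 0 in 9 libraries and at 0.2 in PD-L1 high library 2. Rpl32l was listed at 0 in all 10. Rps4l, related to Rps4x, lay at 0.1532 to 0.4352 in PD-L1 high, 0.3093 to 0.5367 in treated all and 0.2045 to 0.5057 in untreated all. Their partners were abundant. Rps4x, encoded on the X chromosome, averaged 1417 ± 22 in PD-L1 high, 1451 ± 27 in treated all and 1297 ± 26 in untreated all. It rose by 0.16 ± 0.020 in treated all (limma adjusted p = 3.6e-05) and by 0.13 ± 0.020 in PD-L1 high (limma adjusted p = 2.3e-04). Rpl22l1, Rpl7l1 and Rps27l were the expressed members of the paralog group.

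Of the members with known roles off the ribosome, Rpl5 and Rpl11 rose in treated all against untreated all and Rpl13a and Rps3 were not called. Rpl13a, of the GAIT complex, averaged 3587 ± 200 in PD-L1 high, 3679 ± 110 in treated all and 3545 ± 89 in untreated all. With median-ratio scaling it was 0.14 higher in treated all than in untreated all (limma adjusted p = 0.022), and with the replicate block 0.05 higher (limma adjusted p = 0.038). Rpl5 had signals of 94.32, 103.2 and 95.24 in PD-L1 high, 109.2, 103.5 and 99.25 in treated all, and 93.21, 86.25, 86.09 and 93.19 in untreated all. Treated all lay above untreated all without overlap, by 0.21 ± 0.046 (limma adjusted p = 0.0021). In PD-L1 high Rpl5 differed from untreated all by 0.12 (limma adjusted p = 0.041), which was not called without untreated libraries 3 and 4 (adjusted p = 0.12), without untreated library 2 or 3 (0.10 each), without PD-L1 high library 2 (0.08) or 3 (0.14), or without treated library 2 (0.12), which enters the shared spread. Rpl11 averaged 1382 ± 23 in PD-L1 high, 1411 ± 42 in treated all and 1297 ± 15 in untreated all and rose by 0.12 ± 0.021 in treated all (limma adjusted p = 4.4e-04) and 0.09 ± 0.021 in PD-L1 high (limma adjusted p = 0.0031). Rps3, which also acts in DNA repair, averaged 1262 ± 22 in PD-L1 high, 1229 ± 39 in treated all and 1220 ± 15 in untreated all. Its PD-L1 high level differed from that of untreated all by 0.05 (limma adjusted p = 0.073), which was called without PD-L1 high library 3 (0.06) or treated library 1 (0.05) and with median-ratio scaling (0.15).

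Rps6 is the substrate of the S6 kinases. Its signal was 1264, 1303 and 1362 in PD-L1 high, 1392, 1422 and 1390 in treated all, and 1278, 1226, 1239 and 1259 in untreated all. It rose by 0.16 ± 0.024 in treated all against untreated all without overlap (limma adjusted p = 1.5e-04). It was 0.10 ± 0.026 lower in PD-L1 high than in treated all (limma adjusted p = 0.018), a call lost without untreated libraries 3 and 4 (adjusted p = 0.051), without treated library 2 (-0.09) or without PD-L1 high library 1 (-0.07) or 2 (-0.09), and with median-ratio scaling (-0.08). The copies named here and in the next paragraph, and the genes they resemble, were chosen after their values were seen. The pseudogene Rps6-ps4, whose sequence is 100% identical over the coding part, is listed as a gene of its own and fell. Its signal was 249.5, 285.8 and 216.0 in PD-L1 high, 227.2, 271.4 and 296.4 in treated all, and 312.6, 379.4, 344.0 and 350.0 in untreated all, a log2 fold change of -0.39 for treated all against untreated all (limma adjusted p = 0.017). Added together, gene and copy reached 1514, 1589 and 1578 in PD-L1 high, 1620, 1693 and 1687 in treated all, and 1591, 1605, 1583 and 1609 in untreated all. On that sum the change in treated all was 0.06 ± 0.021 (limma adjusted p = 0.024), and PD-L1 high against untreated all was -0.03, where Rps6 alone had 0.07 (limma adjusted p = 0.036), a call lost in 12 of the other settings.

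Near-identical copies are a general limit for these genes. Of 83 members with an annotated coding sequence, 74 had at least 1 copy of 95% identity or more over 80% of its length among annotated transcripts, with a median of 5 copies and up to 57 for Rpl21. Of 561 such copies 21 are listed in the table and 10 reach a signal of 1 in at least 1 library, so where reads of the other copies went is not known. Rpl14 rose by 0.12 in treated all, while its copy Rpl14-ps1, 98.9% identical, fell by 0.25 (limma adjusted p = 0.0069). Their sum changed by -0.01 (limma adjusted p = 0.85). Rpl37 itself was not called in treated all against untreated all (-0.02, limma adjusted p = 0.34). Its copy, Rpl37rt, rose by 0.30 (limma adjusted p = 1.6e-04), and the sum of both by 0.10 (limma adjusted p = 0.0071). Adding the 10 copies that reach a signal of 1 to their members left 44 rises and 10 falls in treated all against untreated all. The members called were not all the same, as Rpl14 lost its call and Rpl37 gained one. Exons of 38 members also overlap other annotated genes, 19 of them on the opposite strand.

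**Figure D5:**
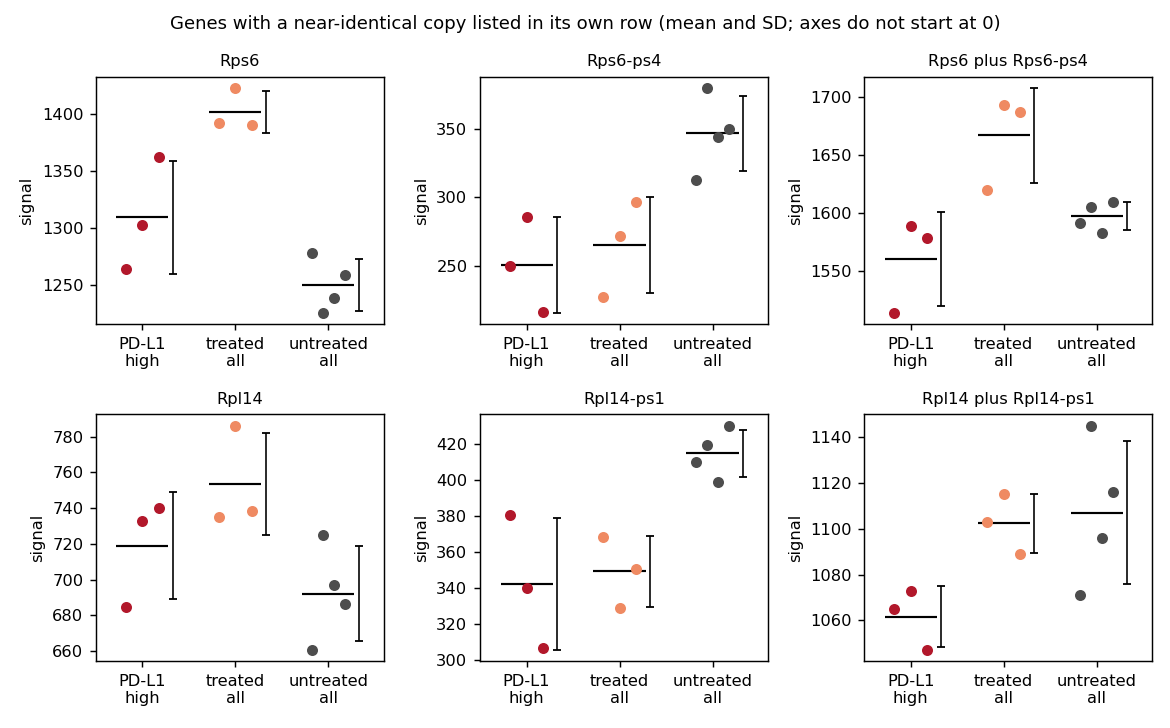
Signal of Rps6 and Rpl14, of the near-identical copy of each that is listed separately, and of the 2 added up, in each library (points) with the group mean as a line and the SD as a bar; the vertical axes do not start at 0. Gene and copy differ in opposite directions between treated all and untreated all, and the sum of Rpl14 and Rpl14-ps1 overlaps between these groups.

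Genes that work beside the ribosomal proteins were counted in the same fit, from lists whose choice is described under the processing. Each count is given as higher and lower calls, followed in brackets by the count with median-ratio scaling and then by that without untreated libraries 3 and 4. The first counts are read against the shares of all genes, 23.1% higher and 38.8% lower in treated all against untreated all. For PD-L1 high these shares were 11.5% and 14.1% against treated all, and 19.1% and 41% against untreated all. With median-ratio scaling they were, in the same order, 30.8% and 30.2%, 13.9% and 11.9%, and 28% and 27.5%. Without untreated libraries 3 and 4 they were 18.1% and 29.5%, 7.69% and 8.81%, and 14.6% and 29.5%. Where a direction had 0 calls, the count at an unadjusted p under 0.05 was also 0 unless given. Of 4 ribosomal components outside the naming rule, 2 were higher and 0 lower in treated all against untreated all (4 and 0, 0 and 0), 0 and 1 for PD-L1 high against treated all (0 and 0, 0 and 0; 1 higher at an unadjusted p under 0.05), and 1 and 1 for PD-L1 high against untreated all (3 and 0, 1 and 1). Fau, the source of Rps30, was 0.09 higher in PD-L1 high than in untreated all (limma adjusted p = 0.0032), and Rack1 was 0.06 lower in PD-L1 high than in treated all (limma adjusted p = 0.025). The call of Rack1 was lost without untreated libraries 3 and 4 (adjusted p = 0.081) and with median-ratio scaling (-0.04). Of 8 chaperones of ribosomal proteins, limma called 0 in treated all against untreated all (1 higher at an unadjusted p under 0.05; 4 higher and 0 lower with median-ratio scaling; 0 without untreated libraries 3 and 4). In PD-L1 high 0 were higher and 3 lower than in treated all (0 and 2, 0 and 1), led by Heatr3 at -0.23, and 0 and 3 than in untreated all (0 and 1, 0 and 1).

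Of 58 genes of RNA polymerase I transcription and ribosome assembly, 14 were higher and 23 lower in treated all against untreated all (23 and 11, 11 and 13), and 2 and 41 for PD-L1 high against untreated all (8 and 26, 2 and 29). Relative to treated all, 0 were higher and 32 lower in PD-L1 high (0 and 25, 0 and 24). The counts of treated all are 24.1% higher and 39.7% lower, near the shares of all genes, while the lower counts of PD-L1 high are 55.2% against treated all and 70.7% against untreated all. Ubtf, which opens ribosomal DNA to polymerase I, averaged 71.7 ± 2.3 in PD-L1 high, 74.77 ± 1.5 in treated all and 99.31 ± 1.5 in untreated all, a log2 fold change of -0.40 for treated all (limma adjusted p = 3.4e-07). Nop56, a core snoRNP protein, averaged 258.0 ± 6.2 in PD-L1 high, 266.6 ± 8.8 in treated all and 346.2 ± 2.9 in untreated all (-0.38 for treated all, limma adjusted p = 2.3e-07). Tsr1, a late assembly factor of the small subunit, averaged 30.82 ± 0.57 in PD-L1 high, 41.75 ± 1.1 in treated all and 40.57 ± 1.2 in untreated all, and PD-L1 high differed from treated all by -0.43 (limma adjusted p = 1.6e-05).

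Of 36 initiation factors 10 were higher and 11 lower in treated all against untreated all (13 and 6, 8 and 10), 0 and 10 for PD-L1 high against treated all (1 and 7, 0 and 7; 1 higher at an unadjusted p under 0.05), and 6 and 14 for PD-L1 high against untreated all (12 and 8, 6 and 12). Pabpc1, the poly(A)-binding protein, averaged 525.3 ± 18 in PD-L1 high, 577.1 ± 8.4 in treated all and 758.4 ± 13 in untreated all, a change of -0.39 in treated all (limma adjusted p = 1.2e-07). Eif3m rose by 0.30 in treated all (limma adjusted p = 1.6e-07). Of 6 elongation factors 3 were higher and 3 lower in treated all against untreated all (3 and 0, 2 and 2), 0 and 2 for PD-L1 high against treated all (0 and 1, 0 and 2), and 2 and 3 for PD-L1 high against untreated all (3 and 1, 2 and 3). Eef1b2 rose by 0.25 in treated all (limma adjusted p = 4.9e-06), while Eef2, which moves the ribosome along, fell by 0.12 (limma adjusted p = 4.8e-05), a call lost with median-ratio scaling (-0.04).

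Of 16 other mRNAs with a known TOP start, 9 were higher and 5 lower in treated all against untreated all (10 and 3, 7 and 4), 0 and 9 for PD-L1 high against treated all (0 and 5, 0 and 7), and 6 and 7 for PD-L1 high against untreated all (8 and 3, 5 and 6). All of these 16 but Hnrnpa1, Naca, Tpt1 and Vim are also in the lists above, so their counts are not separate from those. Npm1, a nucleolar chaperone, averaged 1424 ± 21 in PD-L1 high, 1593 ± 23 in treated all and 1434 ± 17 in untreated all. Of 7 host RNAs of snoRNAs with TOP starts, 5 were higher and 0 lower in treated all against untreated all (6 and 0, 5 and 0). In PD-L1 high 0 were higher and 5 lower than in treated all (0 and 3, 0 and 4), and 4 and 1 than in untreated all (6 and 0, 4 and 0). Snhg12 had signals of 33.56, 33.48 and 35.42 in PD-L1 high, 56.06, 55.67 and 51.48 in treated all, and 23.79, 25.07, 22.59 and 26.32 in untreated all. Its groups did not overlap, and the log2 fold changes were 1.12 for treated all against untreated all (limma adjusted p = 1.3e-08) and -0.66 for PD-L1 high against treated all (limma adjusted p = 1.4e-05).

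Of 22 regulators around mTOR, Myc and the eIF2 kinases, 6 were higher and 11 lower in treated all against untreated all (8 and 11, 4 and 10), 1 and 3 for PD-L1 high against treated all (4 and 3, 1 and 2), and 3 and 9 for PD-L1 high against untreated all (4 and 7, 3 and 7). Ddit4, an inhibitor of mTOR signalling, averaged 54.13 ± 0.88 in PD-L1 high, 146.5 ± 1.6 in treated all and 32.67 ± 1.8 in untreated all, with log2 fold changes of 2.13 for treated all against untreated all (limma adjusted p = 3.6e-12) and -1.42 for PD-L1 high against treated all (limma adjusted p = 3.9e-09). Myc, which drives ribosome production, averaged 68.56 ± 1.5 in PD-L1 high, 63.73 ± 0.45 in treated all and 87.96 ± 3.6 in untreated all and fell by 0.46 in treated all (limma adjusted p = 4.7e-07). Of 6 genes of the Mdm2 and p53 circuit 3 were higher and 2 lower in treated all against untreated all (4 and 2, 2 and 2), 0 and 2 for PD-L1 high against treated all (1 and 2, 0 and 2; 1 higher at an unadjusted p under 0.05), and 2 and 3 for PD-L1 high against untreated all (2 and 2, 1 and 2). Cdkn1a averaged 7.036 ± 0.46 in PD-L1 high, 11.06 ± 1.1 in treated all and 6.878 ± 0.39 in untreated all, a change of 0.61 in treated all (limma adjusted p = 2.5e-05).

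Of 11 genes of ribosome rescue and quality control 2 were higher and 5 lower in treated all against untreated all (3 and 4, 1 and 5), 0 and 3 for PD-L1 high against treated all (1 and 2, 0 and 2; 1 higher at an unadjusted p under 0.05), and 0 and 8 for PD-L1 high against untreated all (1 and 4, 0 and 7). Zfp598, which marks collided ribosomes, averaged 26.77 ± 1.4 in PD-L1 high, 28.24 ± 1.1 in treated all and 33.44 ± 0.33 in untreated all. Of 3 measured GAIT partners of Rpl13a 1 was higher and 1 lower in treated all (2 and 1, 1 and 1), 0 and 1 for PD-L1 high against treated all (0 and 1, 0 and 1), and 1 and 2 for PD-L1 high against untreated all (1 and 1, 0 and 2). Among them Eprs was 0.18 lower in PD-L1 high than in treated all (limma adjusted p = 0.0055), and Syncrip fell by 0.24 in treated all (limma adjusted p = 2e-05). Of 78 mitochondrial ribosomal proteins, which build the separate ribosome of that organelle, 22 were higher and 17 lower in treated all against untreated all (36 and 7, 17 and 9), 0 and 10 for PD-L1 high against treated all (0 and 7, 0 and 4; 3 higher at an unadjusted p under 0.05), and 20 and 19 for PD-L1 high against untreated all (27 and 7, 10 and 14). The counts of treated all are 28.2% higher and 21.8% lower and those of PD-L1 high against untreated all 25.6% and 24.4%. Mrpl34 averaged 82.24 ± 2.6 in PD-L1 high, 77.24 ± 5.0 in treated all and 133.9 ± 2.1 in untreated all, a log2 fold change of -0.79 in treated all (limma adjusted p = 2.9e-08).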

How the data were processed

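Per the labels' protocols, TruSeq libraries started from 5 µg of RNA each. The values the authors deposited are 1 normalized signal for every gene in each of 10 libraries. The submitters' processing notes name mm10 and CASAVA 1.7; aligner, annotation and normalization are not stated there. Of 25507 rows, 695 had no value, and the values of 52 repeated symbols were summed, giving 24755 genes. The 11487 genes averaging 1 or more were tested on log2(signal + 1), which understates changes of low genes, with limma 3.58.1 in R 4.3.3 (trend, robust variances, 1 mean per group over 10 libraries). P-values were adjusted by Benjamini and Hochberg over all tested genes and called under 0.05. The design allowed for counts or normalized values, and its test for normalized values applied. The model was checked on simulated data with independent noise in each gene and library. That noise lacked the likeness of untreated libraries 3 and 4 and the offset that most ribosomal proteins shared, so the check does not cover them. Members and lists were chosen with earlier results of these data known. Named members were a set of paralogs and proteins with other roles, the 5 largest called rises and falls without overlap per comparison, and the 3 of highest signal per subunit; of each list, genes among the 3 called with the smallest adjusted p in a comparison. The copies named fall outside this rule. Some genes that the rule selects are not reported here. Coordinates come from GENCODE M21 for GRCm38. Same-numbered libraries did not deviate together, so no pairing was used.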

Additional observations from a re-analysis of the deposited data

How the results depend on the processing

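The count of ribosomal proteins called in PD-L1 high against treated all, 15, was the least stable. It was 3 with median-ratio scaling, 5 with upper-quartile scaling (3 lower, and Rpl37a and Rpl39 higher), 4 without the variance trend and robust variances, 8 without untreated libraries 3 and 4, and 2 without them and with median-ratio scaling, and 8 to 17 when each library was left out in turn. The counts of treated all against untreated all (54) and PD-L1 high against untreated all (46) stayed within 1.5 times under all settings, at 44 to 55 and 39 to 48 when a library was left out, but the falls among the 54 numbered 5 to 13. Median log2 fold changes moved with scaling and with single libraries, over 0.054 to 0.089, -0.048 to -0.022 and 0.016 to 0.053 when 1 was left out. That of treated all against untreated all was 0.153 with median-ratio scaling and 0.148 when libraries 3 and 4 were also left out. That of PD-L1 high against untreated all was 0.141, 0.135 and, with upper-quartile scaling, 0.095, and that of PD-L1 high against treated all was -0.009 with upper-quartile scaling. The summed signal with median-ratio scaling averaged 138347 in PD-L1 high, 140343 in treated all and 127980 in untreated all. Of 53 called values of named members, 30 kept their call and direction in every setting. Reversed values were 0.01 for Rpl8 in treated all against untreated all with median-ratio scaling, with and without libraries 3 and 4. In PD-L1 high against untreated all they were 0.03 and 0.02 for Rpl37a, and 0.09 for Rpl3 and 0.10 for Rplp1 with median-ratio scaling, and -0.03 for Rps6 with its copy added. The fit with a replicate block for library numbers called 56, 18 and 44 members in the 3 comparisons. Numbers gave no pairing, with correlations of same-numbered libraries of -0.181 to 0.104. The alternative that leaves out libraries 3 and 4 and rescales, and that with copies added, were chosen after seeing the data. Depth is unknown, so the precision of single values cannot be given.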
